A study of Mus musculus with 12 samples.

Results

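The 9 genes Lpl, Cd36, Fabp4, Pparg, Cebpa, Scd1, Gpd1, Cfd and Ptgds are known for roles in adipocytes or in the handling of lipid, and were followed in cultures of mouse embryonic fibroblasts, cells grown out of dissociated embryos. They were chosen by name out of 17305 named genes on the array, through the RefSeq accession of each probe, with their levels in these arrays already known. Their levels, their calls and their overlaps between the groups are therefore a description and support nothing by themselves. The array held 14 probes for them. Pparg, Cd36, Scd1, Cfd and Ptgds had 1 probe each, and Lpl, Cebpa, Gpd1 and Fabp4 had more than 1.

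The study set ATM-WT fibroblasts, with an intact Atm gene, beside ATM-KO fibroblasts, in which Atm was knocked out. Atm encodes a protein kinase that is activated by DNA double strand breaks. Each genotype was measured without irradiation (NonIR-WT and NonIR-KO) and 72 hours after 4.32 Gy (IR-WT and IR-KO), as 3 samples in each of the 4 groups. The labels name no strain, knockout allele or embryo age, and they do not say whether the numbered samples were separate cultures. The p-values therefore measure only how far these samples varied, and that variation may be technical. RNA from each sample was labelled with 1 dye and hybridised to 1 Agilent array, and a level below is log2 of the processed signal minus the 75th percentile of that array.

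Adipocytes arise from fibroblast-like precursors. In that process the transcription factors PPARγ and C/EBPα switch on each other and the genes for fat uptake and storage. Lipoprotein lipase (Lpl) releases fatty acids from lipoproteins at the cell surface, CD36 takes fatty acids up and FABP4 carries them inside the cell. SCD1 makes monounsaturated fatty acids, GPD1 links glycolysis to the glycerol backbone of triglycerides, and adipsin (Cfd), a serine protease of the complement system, is secreted. Ptgds encodes the lipocalin-type prostaglandin D synthase. Several of these genes are not particular to adipocytes: macrophages express Lpl, Cd36 and Pparg as well.

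Upstream sequence was held in RefSeq's table (GRCm38.p6) for 5 of the 9 genes, namely Ptgds, Cebpa, Cfd, Cd36 and Pparg. The 250 bases before the annotated start are printed for Ptgds, Cfd and Cebpa. Ptgds had the largest difference between the genotypes among the tested members. Cfd was measured well above background only in the samples numbered 1. The Cebpa levels overlapped in each genotype and each irradiation comparison. Ptgds lies on the minus strand at chr2:25469750-25469999, Cfd on the plus strand at chr10:79890603-79890852, and Cebpa on the plus strand at chr7:35119043-35119292. Each is written 5′ to 3′ along the gene, and capitals mark matches to the letters searched.
Ptgds: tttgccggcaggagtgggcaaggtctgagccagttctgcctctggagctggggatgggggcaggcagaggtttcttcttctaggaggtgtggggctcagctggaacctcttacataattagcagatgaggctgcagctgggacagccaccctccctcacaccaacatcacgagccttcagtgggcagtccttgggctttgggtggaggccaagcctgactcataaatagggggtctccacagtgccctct
Cfd: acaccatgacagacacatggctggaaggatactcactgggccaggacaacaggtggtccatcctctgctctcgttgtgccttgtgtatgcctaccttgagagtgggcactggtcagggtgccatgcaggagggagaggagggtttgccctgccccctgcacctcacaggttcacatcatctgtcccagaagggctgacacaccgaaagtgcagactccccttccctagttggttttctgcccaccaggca
Cebpa: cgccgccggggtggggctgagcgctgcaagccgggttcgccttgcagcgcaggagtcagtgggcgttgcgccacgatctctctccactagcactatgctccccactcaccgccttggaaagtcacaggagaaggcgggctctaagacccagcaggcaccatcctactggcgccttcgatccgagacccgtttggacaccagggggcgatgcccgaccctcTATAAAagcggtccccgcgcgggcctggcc
The letters searched, on both strands, were TTGCNNAA, bound by C/EBP proteins, AGGTCA, the core letters bound by nuclear receptors such as PPARγ, TATAAA, the TATA box, CCAAT, which NF-Y binds, and GGGCGG, which Sp1 binds. No motif of the 5 contains another. Of 32851 upstream windows in the table, 9.56% held TTGCNNAA, 14% AGGTCA, 12.4% TATAAA, 33.8% CCAAT and 32.7% GGGCGG. The Cebpa window held TATAAA, beginning 30 bases before the start, and none of the other letters. The Ptgds and Cfd windows held none of the 5.

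Across the 12 arrays, 55.3% to 64.5% of probes were well above background and the 75th percentile of signal lay between 379 and 757. All 12 fibroblast markers, among them Col1a1 and Col1a2, were well above background on every array. Atm itself was dim. Its probe was well above background on 2 arrays of NonIR-WT, 3 of IR-WT, 0 of NonIR-KO and 1 of IR-KO, and the labels do not say whether it lies in the deleted part of the gene. Its levels were -3.55, -5.65 and -4.25 in NonIR-WT, -2.87, -4.60 and -4.60 in IR-WT, -5.43, -7.01 and -6.20 in NonIR-KO and -5.66, -7.50 and -6.48 in IR-KO. Without irradiation Atm was at least 1.96-fold lower in ATM-KO cells (limma adjusted p = 0.476). After irradiation only sample 1 of IR-KO was measured, and no size of the difference is given. The arrays came on 3 slides. Slide 1 held ATM-WT samples 1 and 2, slide 2 held ATM-WT sample 3 and ATM-KO sample 1, and slide 3 held ATM-KO samples 2 and 3. Only slide 2 therefore held both genotypes. On every slide the irradiated samples took positions 2 and 4 and the others took 1 and 3, and the effect of position cannot be told apart from that of irradiation. The samples numbered 1 stood apart from the others in all 4 groups, as described for the single genes below.

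Of the 9 genes, 7 passed the filter, which asked that in some group all 3 arrays measured the probe well above background. Lpl, Fabp4, Pparg, Cebpa, Scd1 and Ptgds were well above background on all 12 arrays and Gpd1 on 11. Cd36 was well above background on 2 arrays and Cfd on 4, and neither was tested. Without irradiation, limma called 3 of the 7, with Lpl and Ptgds lower and Gpd1 higher in ATM-KO cells, where 0.857% of the 18430 features tested were called. After irradiation it called Ptgds and Gpd1, where 0.206% of features were called, 0.147% lower and 0.0597% higher. These shares are printed as background, and nothing is read from the members' counts because the genes were chosen from these values.

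**Figure D1:**
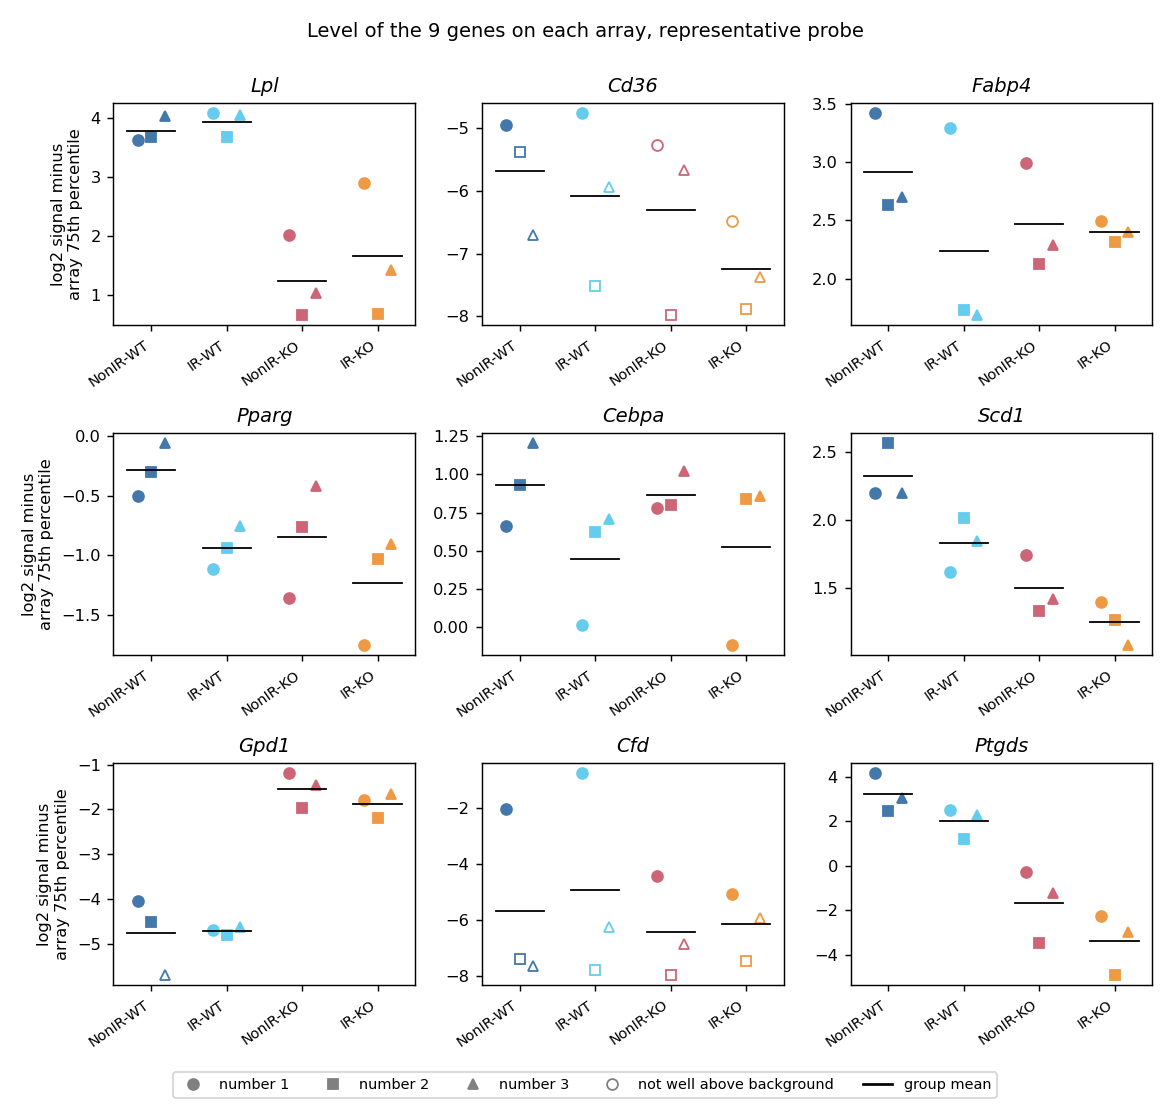
Level of each of the 9 genes on each of the 12 arrays (y axis, log2 signal minus the array's 75th percentile; x axis, the 4 groups), with the sample number as the marker shape, open symbols where the probe was not well above background and a line at the group mean. Lpl and Ptgds lie lower and Gpd1 higher in every ATM-KO sample than in every ATM-WT sample, and Cfd is filled only in the samples numbered 1.

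Among the genes of fatty acid uptake, Lpl, the lipase that frees fatty acids for import, stood at 3.63, 3.68 and 4.02 in the 3 NonIR-WT samples and at 4.07, 3.67 and 4.04 in the 3 IR-WT samples. It stood at 2.02, 0.66 and 1.04 in the NonIR-KO samples and at 2.90, 0.68 and 1.42 in the IR-KO samples. No ATM-KO sample reached the lowest ATM-WT sample, and in each ATM-KO group sample 1 was the highest. Of all features, 5.4% lay lower in ATM-KO without overlap of the groups when not irradiated and 3.72% after irradiation. The group means of the level were 3.78 ± 0.21 (SD, n = 3), 3.93 ± 0.22, 1.24 ± 0.70 and 1.67 ± 1.13 for NonIR-WT, IR-WT, NonIR-KO and IR-KO. Lpl was thus 5.80-fold lower in ATM-KO cells without irradiation, a log2 difference of -2.54 ± 0.49 (SE; limma adjusted p = 0.0327). After irradiation the difference was -2.26 ± 0.49 with adjusted p = 0.118 in limma, and 0.035 with the sample number as a replicate block, a fit that called 0.76% of all features. A second Lpl probe, also well above background on every array, gave -2.46 and -2.30.

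Within slide 2 the Lpl difference was smaller, -2.0 without irradiation and -1.14 after it, from 1 sample of each genotype and thus with no test. With the slide as a fixed term it was -1.71 (limma adjusted p = 0.186) and -1.43 (adjusted p = 0.439). Leaving out single arrays, the difference without irradiation ranged from -2.93 to -2.25 and its adjusted p from 0.00474 to 0.204, with 4 of the 12 fits calling it. Those 4 left out IR-WT sample 1, NonIR-KO sample 1, IR-KO sample 1 or IR-KO sample 2, and the call was lost without any 1 of the other 8 arrays. The call after irradiation was made in 1 of the 12 fits, with adjusted p from 0.00943 to 0.546.

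Cd36, the fatty acid translocase, was well above background only on the arrays of NonIR-WT sample 1 and IR-WT sample 1, at -4.94 and -4.76. Its group ranges overlapped throughout, and it was not well above background in any of the 6 ATM-KO samples. Fabp4, the fatty acid carrier that is abundant in fat cells and in macrophages, was bright in every group. Its levels were 3.42, 2.64 and 2.70 in NonIR-WT and 3.29, 1.73 and 1.68 in IR-WT. They were 2.99, 2.13 and 2.29 in NonIR-KO and 2.50, 2.32 and 2.40 in IR-KO. Sample 1 was the highest of its group in all 4 groups, and the groups overlapped in each comparison. The genotype difference of Fabp4 was -0.45 ± 0.42 without irradiation and 0.17 ± 0.42 after it, and the irradiation difference was -0.68 ± 0.42 in ATM-WT and -0.07 ± 0.42 in ATM-KO cells, none of them called. With the slide as a fixed term the genotype difference without irradiation was 0.24, so its direction is not settled. The 2 further Fabp4 probes gave -0.42 and -0.52 for genotype without irradiation and 0.25 and 0.42 after it, the same directions as the first.

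Of the transcription factors, Pparg, the nuclear receptor that drives fat cell formation, had a single probe printed in 10 spots. Its levels were -0.50, -0.30 and -0.06 in NonIR-WT and -1.11, -0.94 and -0.76 in IR-WT. They were -1.36, -0.76 and -0.42 in NonIR-KO and -1.76, -1.03 and -0.90 in IR-KO. The irradiated ATM-WT samples all lay below the nonirradiated ones, by -0.65 ± 0.30 (SE), a difference that was not called (limma adjusted p = 0.801, and 0.0927 with the replicate block), and 5.7% of features lay lower without overlap in that comparison. In each of the 6 numbered pairs Pparg was lower after irradiation, by 0.62, 0.64 and 0.70 log2 units in ATM-WT and by 0.40, 0.27 and 0.48 in ATM-KO. The share of all features that ran in 1 direction in all 6 pairs was not counted, for Pparg or for Scd1, Ptgds and Cfb below. Sample 1 was the lowest of its group in all 4 groups.

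Cebpa, the factor that acts with PPARγ to keep fat cells differentiated, showed no separation by genotype or by irradiation. Its mean level was 0.93 ± 0.27 (SD, n = 3) in NonIR-WT, 0.45 ± 0.38 in IR-WT, 0.87 ± 0.14 in NonIR-KO and 0.53 ± 0.56 in IR-KO, and every neighbouring pair of groups overlapped. The genotype differences of Cebpa were -0.07 ± 0.31 and 0.08 ± 0.31 (SE), without and after irradiation. The second Cebpa probe gave 0.03 and -0.03. After irradiation the first probe differed by -0.48 ± 0.31 (SE) in ATM-WT and by -0.34 ± 0.31 in ATM-KO cells, neither called. By numbered pair these were -0.65, -0.30 and -0.49 in ATM-WT and -0.90, 0.04 and -0.16 in ATM-KO. As with Pparg, sample 1 was the lowest of each group, and for Cebpa it reached 0.01 in IR-WT and -0.12 in IR-KO.

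Among the genes of lipid synthesis, Scd1, the desaturase that turns stearate into oleate, fell into an order of 4 groups. Its levels were 2.20, 2.57 and 2.20 in NonIR-WT and 1.62, 2.01 and 1.85 in IR-WT. They were 1.74, 1.33 and 1.42 in NonIR-KO and 1.40, 1.26 and 1.07 in IR-KO. NonIR-WT stood above IR-WT without overlap, while IR-WT with NonIR-KO and NonIR-KO with IR-KO overlapped. The irradiation difference in ATM-WT cells was -0.50 ± 0.23 (SE) and was not called (limma adjusted p = 0.795). In that comparison 5.7% of all features lay lower without overlap. Scd1 was lower after irradiation in each numbered pair, at -0.58, -0.55 and -0.35 in ATM-WT and -0.34, -0.07 and -0.34 in ATM-KO. The ATM-KO samples lay below the ATM-WT samples without overlap at both conditions, by -0.83 ± 0.23 (SE; limma adjusted p = 0.192) and -0.58 ± 0.23 (adjusted p = 0.741), and neither difference was called. Beside them, 5.4% and 3.72% of all features lay lower in ATM-KO without overlap, without and after irradiation.

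Gpd1, the cytosolic glycerol-3-phosphate dehydrogenase, was the member that stood higher in ATM-KO cells. Its levels were -4.05, -4.52 and -5.71 in NonIR-WT, the last of them not well above background, and -4.69, -4.80 and -4.64 in IR-WT. They were -1.19, -1.98 and -1.45 in NonIR-KO and -1.80, -2.20 and -1.65 in IR-KO. Every ATM-KO sample lay above every ATM-WT sample. Of all features, 8.29% stood higher in ATM-KO without overlap of the groups when not irradiated and 3.13% after irradiation. The difference was 3.22 ± 0.38 (SE) without irradiation, a 9.30-fold higher level with limma adjusted p = 0.00120, and 2.83 ± 0.38 after irradiation, 7.09-fold with adjusted p = 0.0124. Leaving out NonIR-WT sample 3, the array that did not measure it, the difference without irradiation was 2.74 (adjusted p = 0.00285). Within slide 2, which holds that array, Gpd1 was at least 18.8-fold higher in ATM-KO cells without irradiation, and the difference after irradiation was 2.84.

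With normexp background correction the Gpd1 differences were 0.81 and 1.42 (limma adjusted p = 0.673 and 0.595). The other Gpd1 probe was not well above background on any of the 12 arrays and so gives no second measurement, and averaging it with the first gave 1.71 and 1.64 (adjusted p = 0.0934 and 0.175). Leaving out single arrays kept the call without irradiation in all 12 fits. After irradiation it was lost without IR-WT sample 2, IR-KO sample 2 or IR-KO sample 3, with adjusted p up to 0.0774.

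Of the secreted products, Ptgds, the synthase of prostaglandin D2 that also carries lipids outside the cell, varied most of the tested members. Its levels were 4.17, 2.45 and 3.06 in NonIR-WT and 2.51, 1.20 and 2.27 in IR-WT. They were -0.26, -3.49 and -1.23 in NonIR-KO and -2.26, -4.92 and -2.96 in IR-KO. Every ATM-KO sample lay below every ATM-WT sample. Of all features, 5.4% lay lower in ATM-KO without overlap when not irradiated and 3.72% after irradiation. For Ptgds, sample 1 was the highest of each group. The genotype difference was -4.89 ± 0.83 (SE) without irradiation, 29.7-fold lower with limma adjusted p = 0.0147, and -5.37 ± 0.83 after irradiation, 41.5-fold lower with adjusted p = 0.0216. Within slide 2 it was -3.32 and -4.53.

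With the slide as a fixed term the Ptgds differences were -3.69 and -4.17 and were no longer called (limma adjusted p = 0.336 and 0.332). The call without irradiation was lost without NonIR-WT sample 1 or 3 or NonIR-KO sample 2 or 3, with adjusted p up to 0.0613. The call after irradiation was lost without any 1 of the IR-WT samples or without IR-KO sample 2 or 3, with adjusted p up to 0.107.

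Ptgds was also the member whose irradiation difference depended on the pairing of the samples. In each of the 6 numbered pairs it was lower after irradiation, by 1.66, 1.26 and 0.79 log2 units in ATM-WT and by 2.0, 1.43 and 1.73 in ATM-KO, although the unpaired ranges overlapped. Without the block the difference was not called in ATM-WT (-1.24 ± 0.83, SE) or in ATM-KO cells (-1.72 ± 0.83). With the pair as a replicate block it was -1.24 ± 0.22 (limma adjusted p = 0.0217) and -1.72 ± 0.22 (adjusted p = 0.0139), in comparisons where that fit called 2.26% and 2.05% of all features. Both calls were lost in the blocked fit without the samples numbered 1, a set chosen after the data were seen, at -1.02 (adjusted p = 0.0979) and -1.58 (adjusted p = 0.0914). The difference between the genotypes in the irradiation difference of Ptgds was -0.48 ± 1.17 (SE) and was not called.

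Cfd, the serine protease adipsin, was well above background on exactly 4 arrays, those of the samples numbered 1. Its level there was -2.03 in NonIR-WT, -0.75 in IR-WT, -4.43 in NonIR-KO and -5.06 in IR-KO, while the other 8 arrays lay between -7.97 and -5.93 and were not well above background. No comparison of groups can be made for Cfd, because 2 of 3 arrays in every group lacked a measured level.

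**Figure D2:**
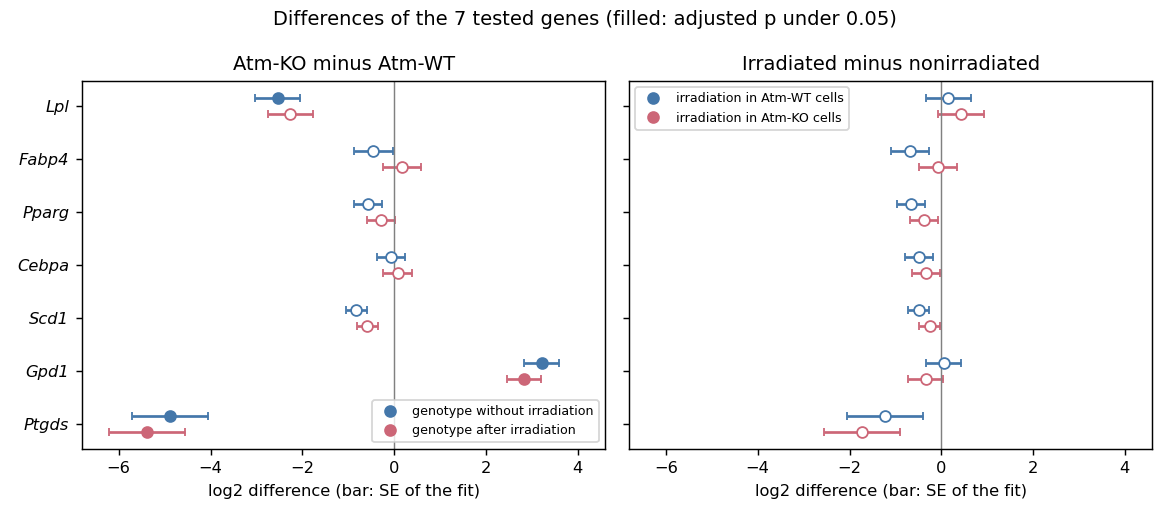
Log2 differences of the 7 tested genes from the limma fit over 12 arrays (x axis; bars, standard error of the fit), for genotype on the left and irradiation on the right, with filled symbols where the adjusted p was under 0.05. Ptgds and Lpl sit left of 0 and Gpd1 right of 0 for genotype, and no symbol is filled for irradiation.

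Over the 12 arrays and without the block, limma called no member for irradiation in either genotype. Without the samples numbered 1 it called Fabp4 in ATM-WT cells, at -0.96 (adjusted p = 0.0377), where 0.906% of all features were called. The irradiation fits called 0.445% of features in ATM-WT and 0.00543% in ATM-KO cells, and 1190 and 1462 features had an unadjusted p under 0.05, none of them a member. The difference between the 2 genotypes in the irradiation difference was not called for any member by limma, where 0.00543% of features were called and 166 had an unadjusted p under 0.05. The irradiated samples came from 72 hours after exposure, and no other time was analysed here.

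The samples numbered 1 differed from samples 2 and 3 in some fat cell genes other than the members, in both directions. The shift was not particular to fat cell genes. Of markers measured on every array, Gfap (3.49), Krt18 (2.16), Krt8 (1.96) and Sox2 (1.95) were higher in sample 1 on average. S100a4 (-1.09) and Pdgfrb (-0.94) were lower. The muscle genes Myh3 and Myog were well above background in all 4 samples numbered 1 and on 2 of the other 8 arrays. The share of all features that shifted so was not counted. Adiponectin (Adipoq), the main hormone of fat cells, stood at -0.82, -7.43 and -7.05 in NonIR-WT, at -0.88, -7.40 and -5.29 in IR-WT, at -4.48, -5.22 and -5.68 in NonIR-KO and at -3.75, -5.39 and -5.54 in IR-KO. All 4 samples numbered 1 were well above background for Adipoq, as were 4 of the other 8 arrays, and sample 1 read highest in every group. The gap was wide in the ATM-WT groups and under 2 log2 units in the ATM-KO groups. Cidec, a protein of lipid droplets, was well above background on 3 arrays, all from samples numbered 1, and Retn, which encodes resistin, on 2, both from ATM-WT samples numbered 1. Of the 12 markers, 7 were measured on every array, and 3 of those were higher and 4 lower in sample 1 on average, from 1.83 for Thrsp to -1.37 for Plin4. The 4 lower ones were Plin4, Pnpla2 (-0.51), Lipe (-0.50) and Agpat2 (-0.42). Leptin (Lep) and the glycerol channel Aqp7 were not well above background on any array. Over the whole list of 12 fat cell markers that are not members, 7 to 10 were well above background on each array, and the median centred level ranged from -0.40 to 0.24 in ATM-WT and from -0.46 to 0.46 in ATM-KO samples.

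Of the members measured on every array, Pparg and Cebpa were lowest in sample 1 of every group, by 0.54 log2 units each on average. Cebpb, an early factor of fat cell formation that is no member, was lowest there by 0.92. Fabp4 and Ptgds were highest in sample 1 of every group, by 0.81 and 1.49 on average. Cd36 and Cfd were not measured on any of the other 8 arrays, and no size is given for them. In bulk samples such as these, fewer cells of a type and less RNA of a gene per cell cannot be told apart.

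Markers of macrophages, which express Lpl themselves, moved with genotype in the same direction as Lpl and Ptgds. Of 15 macrophage markers, 11 to 14 were well above background in the ATM-WT samples and 5 to 10 in the ATM-KO samples. Their median level, centred over the arrays, ranged from 0.69 to 2.19 in ATM-WT and from -1.60 to -0.67 in ATM-KO samples. Limma called 10 of the 11 that were tested lower in ATM-KO cells without irradiation and 5 after it, where 0.467% and 0.147% of all features were called lower. Lysozyme (Lyz2, -2.59 and -2.14) was called at both conditions. Of the 10, 5 were well above background on all 12 arrays, and of the 5 after irradiation only Lyz2 was. Of the called genes, Adgre1, C1qa, C1qc, Laptm5 and Tyrobp passed the filter only through ATM-WT groups. The filter thus favoured lower calls of these genes, and they support nothing. The macrophage factor Spi1 was not well above background on any array, and Itgam and Ptprc were on 2 arrays each. Gpd1 moved the other way. Of 12 endothelial markers 7 to 10 were well above background on each array, and their median centred level overlapped between the genotypes, from -0.41 to 0.63 in ATM-WT and from -0.53 to 0.29 in ATM-KO samples. Without irradiation limma called 1 of the 9 tested, Cdh5, lower in ATM-KO cells, where only sample 1 measured it (adjusted p = 0.0373). Of the other 8, 5 had a difference below 0 and 3 above, from -1.18 for Emcn to 1.69 for Erg. Erg was well above background on 1 NonIR-WT and 2 NonIR-KO arrays, so its value rests partly on readings near background. The part of macrophages or endothelial cells in the genotype results for Lpl, Ptgds and the genes described below was not tested.

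The genes around the members were followed through 10 lists of fat cell and lipid genes that leave the members out. The lists held 157 genes on the array, of which 138 were tested. Without irradiation limma called 1 of the 138, lower in ATM-KO cells, where 0.467% of all features were called lower and 0.391% higher. After irradiation it called the same gene, where 0.147% were called lower. No list gene was called by limma for irradiation in ATM-WT cells, in ATM-KO cells or for the difference between them, with 8, 9 and 0 genes at an unadjusted p under 0.05. By genotype 19 and 16 had such a p, without and after irradiation, beside 1386 and 963 of all 18430 features. The median difference over the 138 genes was -0.07 in both genotype comparisons, beside 0.04 and -0.01 over all features.

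The gene called was Dlk1, which encodes preadipocyte factor 1, a membrane protein known to hold precursors back from becoming fat cells. Its levels were 5.53, 5.81 and 5.86 in NonIR-WT and 4.84, 5.10 and 5.47 in IR-WT. They were 3.74, 3.23 and 3.70 in NonIR-KO and 2.94, 2.91 and 3.14 in IR-KO. All 6 ATM-KO samples lay below all 6 ATM-WT samples. Within a condition, 3 samples against 3, 5.4% and 3.72% of all features lay lower without overlap, without and after irradiation. The share that separated 6 samples from 6 was not counted, for Dlk1 or for Lpl, Gpd1 and Ptgds above. The difference was -2.18 ± 0.25 (SE) without irradiation, 4.52-fold lower with limma adjusted p = 0.00105, and -2.14 ± 0.25 after irradiation, 4.41-fold lower with adjusted p = 0.00698. Within slide 2 it was -2.12 and -2.53. The call after irradiation was lost without IR-WT sample 2 (adjusted p = 0.0559) and with the slide as a fixed term (-2.31, adjusted p = 0.0880), while the call without irradiation was kept in all 12 fits that left out 1 array.

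**Figure D3:**
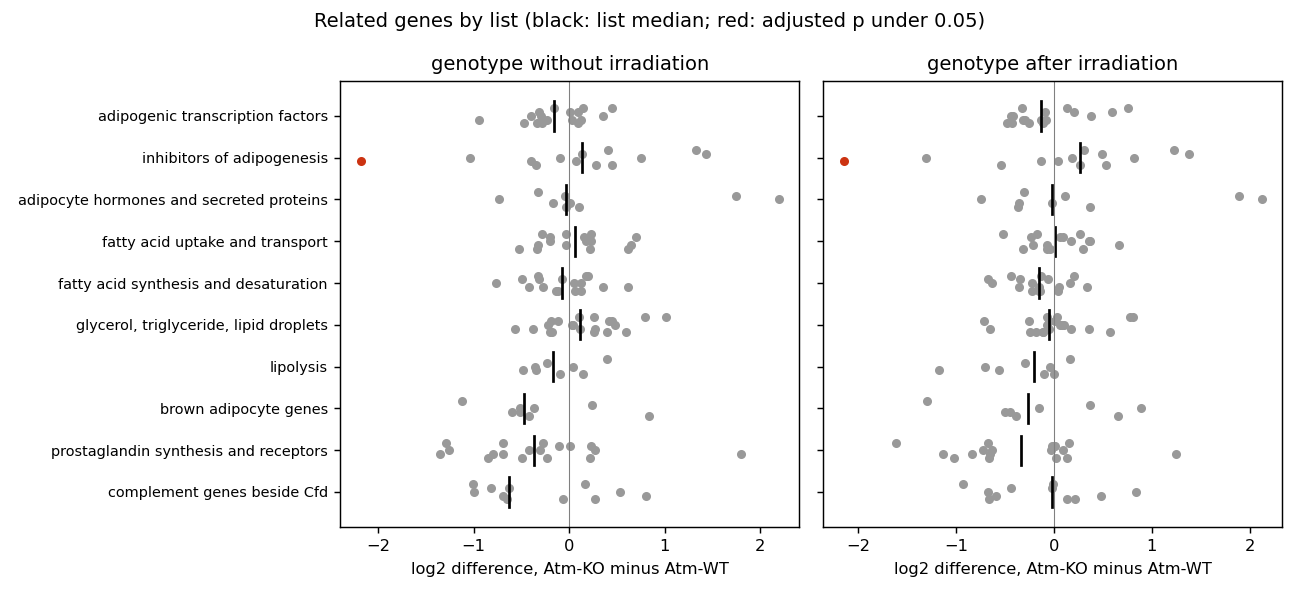
Log2 differences between ATM-KO and ATM-WT of the tested genes in 10 lists (x axis; 1 point a gene, list on the y axis), without irradiation on the left and after it on the right, with the list median in black and called genes in red. Dlk1, at -2.18 and -2.14, is the red point in each panel.

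Over the 12 arrays and without the block, limma called none of the 17 adipogenic transcription factors in any comparison, and their median differences were -0.15 and -0.13 by genotype. Klf5 had the largest difference without irradiation, -0.94 ± 0.25 (SE; limma adjusted p = 0.155). It was called with the replicate block (adjusted p = 0.0361), which called 1.71% of all features there. In that comparison the numbers do not pair the samples. Among the early factors Cebpb gave -0.34 and -0.26 and Cebpd -0.23 and -0.29, and Srebf1, which drives genes of fatty acid synthesis, gave 0.13 and -0.08. In the list of 9 tested hormones and secreted proteins, which had no call, Rbp4, the plasma carrier of retinol, had the largest difference, 2.19 ± 0.53 without irradiation and 2.12 ± 0.53 after it, neither called (adjusted p = 0.112 and 0.205). Its sample 1 in IR-KO stood at 2.10, below the other IR-KO samples at 3.93 and 4.13.

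Of the enzymes of fat synthesis and storage none was called by genotype. The 17 tested genes of fatty acid synthesis and desaturation had median differences of -0.08 without and -0.15 after irradiation. Fasn, the fatty acid synthase, gave 0.07 and -0.14 and Acaca, which makes malonyl-CoA, gave -0.14 and 0.05. Scd2, a desaturase related to Scd1, gave -0.33 and -0.44. In the list of 21 genes for glycerol, triglyceride and lipid droplets the medians were 0.12 and -0.05, with Gpd2, the mitochondrial partner of Gpd1, at -0.38 and 0.36. Plin1, the coat protein of fat cell droplets, gave -0.56 and -0.65, and Plin2, found on droplets of many cell types, gave 0.04 and 0.10. The lipases Pnpla2 and Lipe gave 0.04 and 0.40 without irradiation.

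The prostaglandin list, which surrounds Ptgds, had 18 tested genes and median differences of -0.36 and -0.33, with none called over the 12 arrays and 6 and 4 at an unadjusted p under 0.05. Without irradiation 13 of the 18 had a value below 0 and 5 above. Hpgd, which breaks prostaglandins down, had the largest positive difference, 1.80 ± 0.65 (SE; limma adjusted p = 0.420), and the cyclooxygenase Ptgs1 gave -0.69 and -0.67. The receptor gene Ptger2 was measured in all ATM-WT samples and, of the ATM-KO samples, only in those numbered 1, and was not called after irradiation (adjusted p = 0.583). The inducible cyclooxygenase Ptgs2 gave irradiation differences of 1.18 ± 0.54 in ATM-WT and 1.56 ± 0.54 in ATM-KO cells, with adjusted p = 0.772 and 0.449, and 0.152 and 0.0663 with the replicate block.

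The lists for fatty acid uptake, lipolysis and brown fat cells, with 16, 8 and 8 tested genes, had no call in any of the 5 comparisons over the 12 arrays without the block. With the block Lhx8 of the brown fat list was called by genotype, as given below. Their median differences by genotype without irradiation were 0.07, -0.16 and -0.47. Dbi, which binds acyl-CoA, had the largest irradiation difference of the uptake list in both genotypes, -0.91 ± 0.27 (SE) in ATM-WT and -0.89 ± 0.27 in ATM-KO cells (limma adjusted p = 0.324 and 0.342, and 0.0706 and 0.0701 with the replicate block). G0s2, an inhibitor of the lipase Pnpla2, gave -0.98 ± 0.27 after irradiation of ATM-KO cells (adjusted p = 0.285, and 0.0618 with the block). The 13 tested inhibitors of fat cell formation, Dlk1 among them, had medians of 0.13 and 0.26 by genotype.

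The complement genes beside Cfd, 11 of them tested and none called without the block, included the clearest irradiation difference of the lists. Cfb, the factor that adipsin cleaves, stood at -1.23, 0.60 and 0.31 in NonIR-WT and at 0.96, 2.15 and 2.37 in IR-WT, and at 0.17, 1.08 and 0.83 in NonIR-KO and at 1.73, 2.40 and 2.80 in IR-KO. It was higher in the irradiated sample of all 6 pairs, a pattern whose share over all features was not counted. The differences were 1.94 ± 0.51 (SE) and 1.61 ± 0.51, not called without the block (limma adjusted p = 0.231 and 0.376), and called with it (adjusted p = 0.00234 and 0.0148). Without the samples numbered 1 Cfb was called in ATM-WT cells (1.81, adjusted p = 0.0182) and not in ATM-KO cells (1.64, adjusted p = 0.100). With the block in that set it was called in neither (adjusted p = 0.0676 and 0.0956). With the block the fit also called C2, the classical-pathway relative of Cfb, in ATM-KO cells (1.09 ± 0.20, adjusted p = 0.0324, named after its value was seen), a call that was lost without the samples numbered 1 (adjusted p = 0.0996 with the block). C3, the protein from which the complement cascade proceeds, gave 0.28 and 0.66 and was not called.

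**Figure D4:**
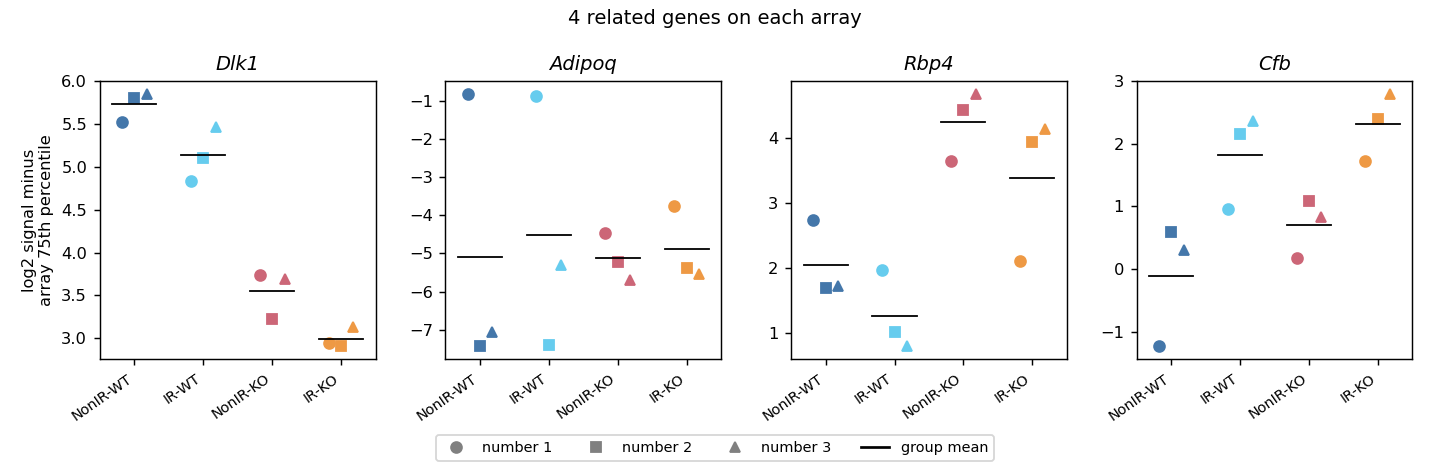
Level of 4 related genes on each array (y axis, log2 signal minus the array's 75th percentile; x axis, the 4 groups), with the sample number as marker shape and a line at the group mean; Adipoq was well above background on 8 of the 12 arrays. Dlk1 separates the genotypes, Adipoq reads highest in sample 1 of every group, Rbp4 in IR-KO is spread from 2.10 to 4.13, and Cfb is higher in the irradiated sample of every pair.

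With the sample number as a replicate block, genotype after irradiation had 4 list genes called, all lower in ATM-KO cells, where 0.456% of features were called lower. Beside Dlk1 they were Wnt6, a signal that opposes fat cell formation (-1.30, limma adjusted p = 0.0207), Lhx8, a marker of brown fat cells (-1.29, adjusted p = 0.0297), and Ptger3, a prostaglandin E receptor (-1.02, adjusted p = 0.0445). Wnt6 and Ptger3 are named after their values were seen.

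Leaving out the samples numbered 1 of all groups, a choice made after the data were seen, gave higher counts by genotype than the other alternatives tried, apart from the same choice with the replicate block. With 2 samples in each group limma then called 27 of the 138 list genes without irradiation and 22 after it, that is 19.6% and 15.9%, where 8.57% and 5.66% of all features were called. In that reduced set no slide held both genotypes, so slide and genotype cannot be told apart in it. Of the calls, 19 were made in both comparisons. Each of the 27 and of the 22 had the same direction of the mean difference in the fit over all 12 arrays. That agreement supports nothing, because the 12 arrays include those on which the calls were made.

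In that reduced set the prostaglandin list held the most calls. Of its 18 tested genes, 9 were lower and 1 higher in ATM-KO cells without irradiation, and 8 were lower and 1 higher after it, where 4.41% and 2.7% of all features were called lower. Of those 10 and 9 calls, 8 at each condition were of genes measured on every array compared. The others were Ptger2, at least 2.43-fold lower without and at least 3.35-fold lower after irradiation, and Tbxas1, the thromboxane synthase, at least 2.96-fold lower without it (named after its value was seen), since no ATM-KO array of that set measured them. The genes called lower at both conditions included the cyclooxygenase Ptgs1 (-1.08 and -1.17), the prostacyclin synthase Ptgis (-0.70 and -0.90) and the receptors Ptger4 (-1.81 and -1.41) and Ptgir (-1.18 and -1.21). Hpgd was the gene called higher, by 2.90 and 2.24. The left-out samples numbered 1 did not all follow. Without irradiation Ptgs1 stood there at 1.34 in ATM-KO and 1.26 in ATM-WT, and Ptgis at 1.29 and 0.82. Ptgir stood at -0.93 and -1.20 and Hpgd at -2.07 and -1.69, so all of these ran the other way. Ptger4, at -3.18 and -2.74, ran the same way. After irradiation Ptgs1 (1.40 and 1.08) and Hpgd (-2.75 and -2.03) still ran the other way, while Ptgis, Ptgir and Ptger4 did not. Ptger4 and Ptgir are named after their values were seen.

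Rbp4 (2.84 and 3.12), Apln, the gene of the secreted peptide apelin (2.39 and 2.58), and the lipid droplet gene Plin4 (2.06 and 1.91) were called higher in that set, and so was Gata2, a transcription factor that restrains fat cell formation (2.44 and 2.33, named after its value was seen). For Gata2 and Plin4 the left-out ATM-KO sample 1 lay below every ATM-WT sample of its condition, that on slide 2 included. Gata2 stood there at -0.83 and -1.22 and Plin4 at -2.93 and -3.18, without and after irradiation. For Rbp4 and Apln it lay above every ATM-WT sample of its condition. The lists of fatty acid uptake and lipolysis had no call without irradiation, with 16 and 8 genes tested. Of the members, Lpl, Gpd1, Ptgds and Scd1 were called without irradiation in that set, Scd1 at -1.01 (limma adjusted p = 0.0193). After irradiation Lpl, Gpd1, Ptgds and Fabp4 were called, Fabp4 at 0.65 (adjusted p = 0.0474). Gpd1 was measured on 1 of the 2 NonIR-WT arrays of that set.

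Across the 12 arrays the named genes with the profile most like each member were sought by Pearson correlation among tested genes, as a description over arrays that share groups, slides and sample numbers. For Lpl they were Rerg (r = 0.98) and Tshz2 (0.97), for Ptgds Egfl6 (0.97) and Cldn11 (0.97), and for Gpd1 Kcnk1 (0.94) and Alox12 (0.93). For Fabp4 they were Car3 (0.95) and Cox8b (0.90, well above background on 9 arrays), for Pparg Adh7 (0.98) and Myoc (0.93), for Cebpa Pdcd7 and Fam171a2 (0.96 each), and for Scd1 Casp6 (0.97) and Lonrf1 (0.96).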

How the data were processed

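The deposited files hold scanner output of 12 1-colour Agilent arrays, read with Feature Extraction 10.7.1.1 per the file headers (11.0 per the submitters' processing notes). The processed signal intensity, per the file headers, was already corrected for background by that software. The value table deposited by the authors holds log2 values that matched the centred scanner values of each array (r = 0.998 to 1.00 over 41174 probes), and was an alternative. Levels here are log2 of the processed signal minus the array's 75th percentile, with spots of a probe averaged. Of 41174 probes, 25097 were named through RefSeq accessions (GRCm38.p6). The brightest probe stood for a gene, and 18430 features were tested, each well above background on every array of some group. No probe was saturated. Precision is limited by having 3 arrays a group.

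Group means were fitted with limma 3.58.1 in R 4.3.3 over all 12 arrays (8 residual degrees of freedom), with Benjamini-Hochberg adjustment over all features at 0.05. The procedure was run on simulated data with independent noise on each array, and with pair effects added for the replicate block. Those data held no slide effect and no shift of the samples numbered 1, so the run does not speak to either. Alternatives changed background correction, scaling, filter, slide, probe rule, replicate block and single arrays. Same-numbered samples deviated together for irradiation in ATM-WT (r = 0.48 to 0.85), in ATM-KO (0.27 to 0.51) and for genotype after irradiation (0.22 to 0.63), over features, and were treated as pairs there. Samples with different numbers reached 0.30, 0.33 and 0.39 in these comparisons, above the lowest same-number value in the last 2. For genotype without irradiation (-0.22 to 0.18) they were not.

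The members and lists were chosen with earlier results of these data known. Named genes were all members, a fixed set of lipid genes, up to 3 called genes a list and comparison or else the gene with the largest difference, and the 2 genes most like each member.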

Additional observations from a re-analysis of the deposited data

Results flagged for a closer look

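Of 58 named genes looked at, 2 had an irradiation difference that ran one way in every numbered sample of ATM-WT and the opposite way in every numbered sample of ATM-KO cells. Pde3b, a phosphodiesterase that restrains lipolysis, differed after irradiation by 0.43 in ATM-WT and by -0.40 in ATM-KO cells, and the difference between the genotypes was -0.83 ± 0.58 (SE). Pde3b was well above background on 2 arrays of NonIR-WT, 3 of IR-WT, 2 of NonIR-KO and 1 of IR-KO, so its direction in ATM-KO cells rests on readings near background. Dio2, the deiodinase that activates thyroid hormone in brown fat, differed by -0.23 in ATM-WT and by 1.03 in ATM-KO cells, and the difference between the genotypes was 1.26 ± 0.84. Neither passed limma's test of that difference (adjusted p = 0.9999 for each). The share of all features with such opposite directions was not counted, and nothing is read from the 2 of 58. Groups of 3 samples are too small for the test of single outlying samples.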

How the results depend on the processing

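No called difference changed sign under any alternative. With the replicate block, limma called 1 related gene and 1 member for irradiation in ATM-WT cells, 2 and 1 in ATM-KO cells, and 4 related genes for genotype after irradiation. For genotype without irradiation, where the numbers do not pair the samples, the block called 4 (Dlk1, Wnt6, Klf5 and Lhx8) in place of 1, where it called 1.71% of all features. Without the samples numbered 1, an alternative added after seeing the data, the related genes called were 27 and 22 by genotype without and after irradiation, and 31 and 28 with the replicate block as well, where that fit called 10.4% and 6.73% of all features. Members called after irradiation were then 4, and 5 with the block, beside 5.66% and 6.73% of all features. For irradiation in ATM-WT cells 1 related gene (Cfb, higher) and 1 member (Fabp4, lower) were called, beside 0.906% of all features. With the block it was 1 related gene, Cox8b, lower, where the irradiated arrays did not measure it, beside 0.591%, and Cfb was not called. With the slide as a fixed term, 1 member was called by genotype without irradiation, and 0 members and 0 related genes after it, beside 0.184% and 0.0163% of all features. Members called after irradiation were 1 with normexp correction, with no filter, with probes well above background on all 12 arrays, and with the mean over probes, beside 0.0705%, 0.0612%, 0.0934% and 0.228% of all features. Leaving out single arrays, related genes called ranged from 1 to 2 without irradiation (2 without NonIR-KO or IR-KO sample 1) and from 0 to 3 after it (0 without IR-WT sample 2, 3 without IR-KO sample 1). Members called ranged from 1 to 3 and from 0 to 3, while 0.309% to 1.22% and 0.0163% to 0.564% of all features were called. All other such counts were 0. The Lpl call was also lost with quantile normalization (limma adjusted p = 0.0779) and with no filter (0.0876), and the Ptgds call after irradiation with no filter (0.0563). Normexp moved the median of all features by -0.17 for genotype without irradiation, -0.14 for irradiation in ATM-WT cells and 0.22 for the difference between them. The causes were not tested. Dim signals of Gpd1, Cd36, Cfd and Atm limit what can be measured.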
